A study of Mus musculus with 8 samples.

Results

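The mitochondrial ribosomal protein genes were taken as every gene symbol in the count tables that begins with Mrpl or Mrps followed by a digit. The rule found 78 of the 25526 symbols listed, and all 78 passed the filter on low counts and stood among the 13978 genes tested. Of these, 51 code for proteins of the large subunit of the mitochondrial ribosome, 26 for proteins of the small subunit, and 1, Mrps36, keeps its ribosomal name although its product is known as an adaptor of the 2-oxoglutarate dehydrogenase complex. Names and location differ for others too: Mrps30 and Mrps18a carry small-subunit names, and their products sit in the large subunit, where they were counted here.

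The data are bulk RNA sequencing libraries of aorta from male mice that carry the Fbn1 C1041G allele on 1 of the chromosome pair, a model of Marfan syndrome in which a cysteine of fibrillin-1 is replaced throughout the animal. The groups are 4 libraries at 2 years of age and 4 at 12 weeks of age, and the stated purpose was to set growth-arrested aneurysms against growing ones. Every library carries the same allele, so no value below separates the effect of age from that of the allele, and no wild type aorta was analysed here. The labels do not say that each library is a separate animal, so the p-values measure the spread between these libraries.

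The mitochondrial ribosome translates the few mRNAs encoded by mitochondrial DNA, all of which specify membrane subunits of the respiratory chain and ATP synthase. Its RNAs come from mitochondrial DNA, while every one of its proteins is encoded in the nucleus, made in the cytosol and imported. Many of these proteins have bacterial counterparts and others arose with mitochondria, and inherited loss of single members causes respiratory chain disease, often with cardiomyopathy, in humans.

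The upstream windows of 5 members are shown because the family is often described through shared promoter motifs. These 5 come from the ends of the range of responses and not from its middle. Mrps18c, Mrpl52 and Mrpl14 had the largest fold changes of the family, and Mrps26 had the lowest. Mrpl30 had a smaller log2 fold change of 0.75, still above the family's upper quartile of 0.55. Each window runs from 250 bases before to 50 after the start site of the RefSeq entry on GRCm38.p6. Capitals mark matches, on either strand, to GCGCANGCG for NRF1, CCGGAAG for ETS factors such as GABP, and AAGATGGCG for YY1.
Mrps18c, chr5:100798509-100798808, plus strand: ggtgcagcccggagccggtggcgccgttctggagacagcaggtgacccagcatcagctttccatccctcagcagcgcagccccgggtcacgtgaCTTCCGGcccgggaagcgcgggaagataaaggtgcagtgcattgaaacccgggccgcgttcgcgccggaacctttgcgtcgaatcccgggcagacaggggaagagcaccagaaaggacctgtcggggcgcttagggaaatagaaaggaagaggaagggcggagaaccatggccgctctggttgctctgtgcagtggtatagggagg
Mrpl52, chr14:54426659-54426958, plus strand: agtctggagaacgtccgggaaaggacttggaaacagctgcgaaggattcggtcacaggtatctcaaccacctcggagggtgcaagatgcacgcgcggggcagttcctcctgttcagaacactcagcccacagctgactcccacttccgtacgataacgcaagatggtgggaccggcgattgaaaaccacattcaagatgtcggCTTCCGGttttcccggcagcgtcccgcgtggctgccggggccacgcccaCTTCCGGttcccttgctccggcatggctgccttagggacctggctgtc
Mrpl14, chr17:45686099-45686398, plus strand: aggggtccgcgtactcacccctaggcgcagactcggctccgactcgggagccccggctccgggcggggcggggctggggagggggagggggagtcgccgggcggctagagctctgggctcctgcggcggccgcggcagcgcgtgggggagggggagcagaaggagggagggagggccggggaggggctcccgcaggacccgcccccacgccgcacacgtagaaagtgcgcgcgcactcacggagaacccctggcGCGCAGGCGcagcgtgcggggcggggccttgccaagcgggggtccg
Mrpl30, chr1:37890227-37890526, plus strand: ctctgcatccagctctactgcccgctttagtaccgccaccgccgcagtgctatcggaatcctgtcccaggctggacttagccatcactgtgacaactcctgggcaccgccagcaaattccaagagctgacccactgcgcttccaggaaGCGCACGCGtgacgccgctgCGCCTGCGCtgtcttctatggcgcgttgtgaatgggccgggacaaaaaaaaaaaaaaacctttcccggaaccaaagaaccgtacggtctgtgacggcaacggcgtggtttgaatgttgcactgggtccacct
Mrps26, chr2:130563507-130563806, plus strand: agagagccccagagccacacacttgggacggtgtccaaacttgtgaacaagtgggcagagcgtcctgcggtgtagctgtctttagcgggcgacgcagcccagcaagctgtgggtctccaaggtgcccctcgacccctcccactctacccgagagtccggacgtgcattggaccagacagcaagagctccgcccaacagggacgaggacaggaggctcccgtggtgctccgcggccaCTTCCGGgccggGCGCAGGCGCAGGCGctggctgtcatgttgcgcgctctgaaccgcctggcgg

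The Mrps18c and Mrpl52 windows hold only the ETS motif, those of Mrpl14 and Mrpl30 only the NRF1 motif, and that of Mrps26, the member with the lowest fold change, holds both. A window was found in RefSeq for 69 of the 78 members, and a gene with several windows was counted once. The ETS motif stood in 26 of these, or 37.7%, against 18.6% of the 10954 tested genes with a window. The NRF1 motif stood in 16 members, 23.2% against 14.2% of tested genes, and the YY1 motif in 8, 11.6% against 3.26%. At least 1 of the 3 was found in 60.9% of members, against 31.6% of tested genes and 16.5% of all 27025 genes of the table. Without a length offset, the medians of members with and without each motif were close. The median log2 fold change was 0.44 for the 26 members with an ETS match and 0.38 for the 43 without, 0.39 with and 0.43 without NRF1, and 0.37 with and 0.40 without YY1. In the fit with a length and GC offset from the longest transcript, described below, the medians were -0.12 with and -0.14 without ETS. They were -0.008 with and -0.18 without NRF1, and -0.26 with and -0.07 without YY1. These differences were not tested. A match to these letters is a description of sequence and does not show that a factor binds.

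Most members were higher at 2 years by a modest amount. With edgeR's quasi-likelihood test and Benjamini-Hochberg adjustment over all genes tested, at an adjusted p below 0.05, 43 of 78 members were called higher at 2 years, 0 were called lower and 35 were not called. The count of members lower was also 0 at an unadjusted p below 0.05, with DESeq2 and with limma voom. This direction depended on whether and how transcript length was modelled, as described below with the lengths. With a length and GC offset from the longest transcript, 13 members were called higher and 24 lower, against 23.1% and 27.8% of all genes. With the offset from the transcript of median length, 20 were called higher and 1 lower, against 24.6% and 28.8% of all genes. Without an offset, 25.8% of all tested genes were called higher, 26.2% lower and 52.0% either way, so calls in general were common. The members' median log2 fold change (2 years over 12 weeks) was 0.40, against -0.01 for all tested genes, and the fold change was positive for 76 members and negative for 2. The middle of the distribution was narrow, with quartiles of 0.24 and 0.55, and 3 members changed by 2-fold or more. For 43 members every 2-year library was above every 12-week library, a pattern shown by 24.3% of all tested genes. In bulk tissue, more cells of a type and more RNA per cell cannot be told apart.

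**Figure D1:**
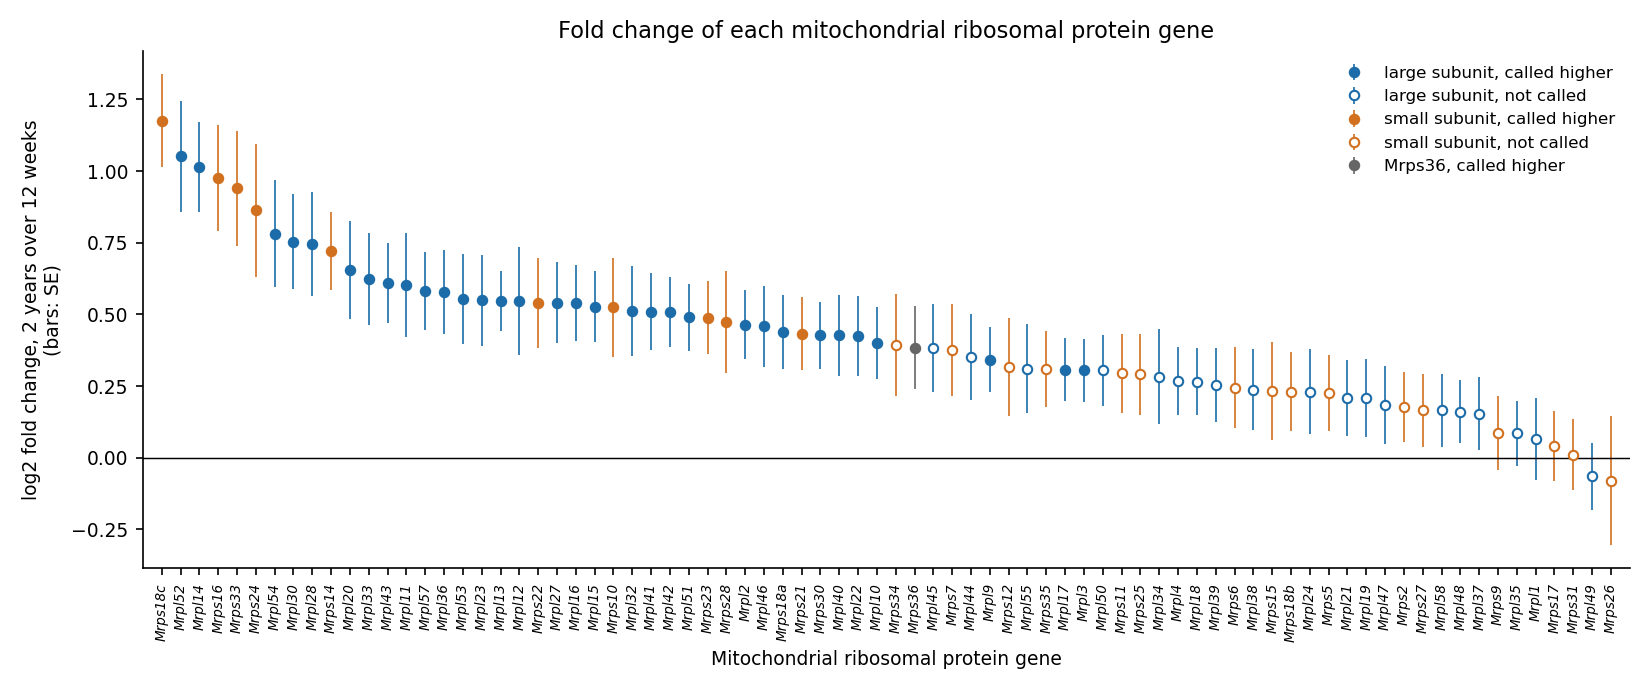
Log2 fold change (2 years over 12 weeks, y axis) of each of the 78 genes (x axis, ranked), with bars for the standard error and filled points for genes called higher by edgeR. The genes run from Mrps18c at 1.18 to Mrps26 at -0.08, 43 points are filled, and no gene was called lower.

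As a share of all counts, the family took 0.175%, 0.199%, 0.199% and 0.170% in the 4 libraries at 2 years, against 0.145%, 0.127%, 0.136% and 0.137% in those at 12 weeks. The groups did not overlap, and the means were 0.186% ± 0.0156 at 2 years and 0.136% ± 0.00725 at 12 weeks (SD, n = 4 each). Large-subunit genes took 0.129% ± 0.0113 at 2 years against 0.0944% ± 0.00475 at 12 weeks, and small-subunit genes 0.0545% ± 0.00420 against 0.0405% ± 0.00274. The ratio of large-subunit to small-subunit counts was 2.37 ± 0.0554 at 2 years and 2.34 ± 0.0849 at 12 weeks, a difference smaller than either SD. By genes, 32 of 51 large-subunit members were called higher with a median log2 fold change of 0.43, and 10 of 26 small-subunit members with a median of 0.31. The difference between the subunits in calls was not tested. Members with a bacterial counterpart and those specific to mitochondria were alike in median, 0.41 over 46 members, of which 27 were called higher, and 0.39 over 31 members, of which 15 were.

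The libraries of a group were not equal in these genes. The third 2-year library had the highest level of its group for 51 of 78 members, and the first 12-week library for 49. The members above all 4 of the 12-week libraries numbered 56, 66, 72 and 56 in the 4 libraries at 2 years. The matching shares of all tested genes were not counted for single libraries. With all 4 of the 2-year libraries required to be above, the pattern held for 43 members and for 24.3% of all tested genes. Total counts ranged from 16251986 to 33880690 at 2 years and from 23622803 to 27417541 at 12 weeks, with the third 2-year library the shallowest of all. That library also gave 10.3% of its counts to the 13 mRNAs of mitochondrial DNA, against 4.14% to 5.94% in the other 2-year libraries and 4.78% to 7.33% at 12 weeks.

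Marker genes of several cell types differed between the ages alongside the family. Across all tested genes 25.8% were called higher and 26.2% lower, the shares against which the marker counts stand. Macrophage markers were called higher at 2 years for 9 of 10, with a summed level of 2635 to 3910 CPM (a gene's counts scaled to a common library total after TMM normalisation) at 2 years against 709 to 982 at 12 weeks. All 8 T and NK cell markers, 7 of 7 B and plasma cell markers and 7 of 7 red blood cell markers tested were also called higher. Smooth muscle markers, the defining genes of the aortic media, were called lower for 7 of 10, with sums of 17952 to 27014 CPM at 2 years against 31777 to 37750 at 12 weeks, and they remained abundant at both ages. Fibroblast markers were called lower for 2 of 8 (5 without the third 2-year library), endothelial markers for 0 of 8 in either direction in edgeR (3 lower without the first 12-week library, 1 lower without the fourth 2-year library, and 1 higher without the third 12-week or without the second 2-year library). Brown fat markers were called for 0 of 7 in edgeR (1 higher without the third 12-week library), and white fat markers were called higher for 2 of 7, a count of 5 without the third 12-week library and of 0 or 1 without any other library except the fourth 2-year library. Heart muscle markers, from a tissue rich in mitochondria, summed to 95.4 to 185 CPM at 2 years against 238 to 1373 at 12 weeks, with the highest sum in the third 12-week library, and 5 of 9 were called lower, a count of 3 without that library and of 2 without any single 2-year library. The 2 of 8 fibroblast markers called lower and the 2 of 7 white fat markers called higher were near the shares of all tested genes. No marker gene was at 0 in all libraries, and the part of the marker shifts in the family's rise was not tested.

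The 6 members with the largest rise belong to both subunits. Mrps18c, 1 of 3 mammalian relatives of bacterial protein S18 and the one at its place in the small subunit, had 24.1, 28.6, 29.0 and 18.1 CPM at 2 years, against 11.9, 10.4, 10.99 and 10.8 CPM at 12 weeks. The groups were far apart, with the lowest 2-year library above the highest 12-week one. Its fold was 2.26 (log2 fold change 1.18, SE 0.16, adjusted p = 0.00015, edgeR). Mrpl52, a large-subunit protein without a bacterial counterpart, had 22.8, 26.6, 34.3 and 21.5 CPM at 2 years, against 16.2, 13.1, 9.80 and 11.5 CPM at 12 weeks, a log2 fold change of 1.05 (SE 0.19, adjusted p = 0.00097). Its first 12-week library came closest to the 2-year range without reaching it. Mrpl14, which lies at the face where the subunits meet and receives the assembly factor Malsu1, had 14.7, 19.2, 18.9 and 13.4 CPM at 2 years, against 8.60, 7.39, 7.92 and 8.76 CPM at 12 weeks, a log2 fold change of 1.02 (SE 0.16, adjusted p = 0.00032). The annotation places exons of Mrpl14 over exons of Tmem63b on the opposite strand, and how the counting treated strand is not given, so its count may include reads of that gene, which was itself called lower.

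Mrps16, a small-subunit protein whose loss in humans causes fatal respiratory chain deficiency, had 20.6, 25.5, 33.2 and 19.8 CPM at 2 years, against 14.8, 10.9, 11.2 and 13.3 CPM at 12 weeks, a log2 fold change of 0.98 (SE 0.19, adjusted p = 0.0012). The ages did not overlap, and the third 2-year library was the highest. Mrps33 had 20.0, 25.03, 36.1 and 19.8 CPM at 2 years, against 14.4, 14.7, 12.0 and 11.3 CPM at 12 weeks (log2 fold change 0.94 ± 0.20 SE, adjusted p = 0.0025). Mrps24, at the site where mRNA enters the small subunit, had 18.7, 20.9, 29.5 and 16.7 CPM at 2 years, against 15.5, 7.59, 11.8 and 12.1 CPM at 12 weeks (log2 fold change of 0.86 with SE 0.23, adjusted p = 0.0088). For both, the third 2-year library was the highest, and no 12-week library reached the lowest 2-year value. Exons of Mrps24 overlap those of Urgcp on the same strand, so the split of reads between them is uncertain.

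**Figure D2:**
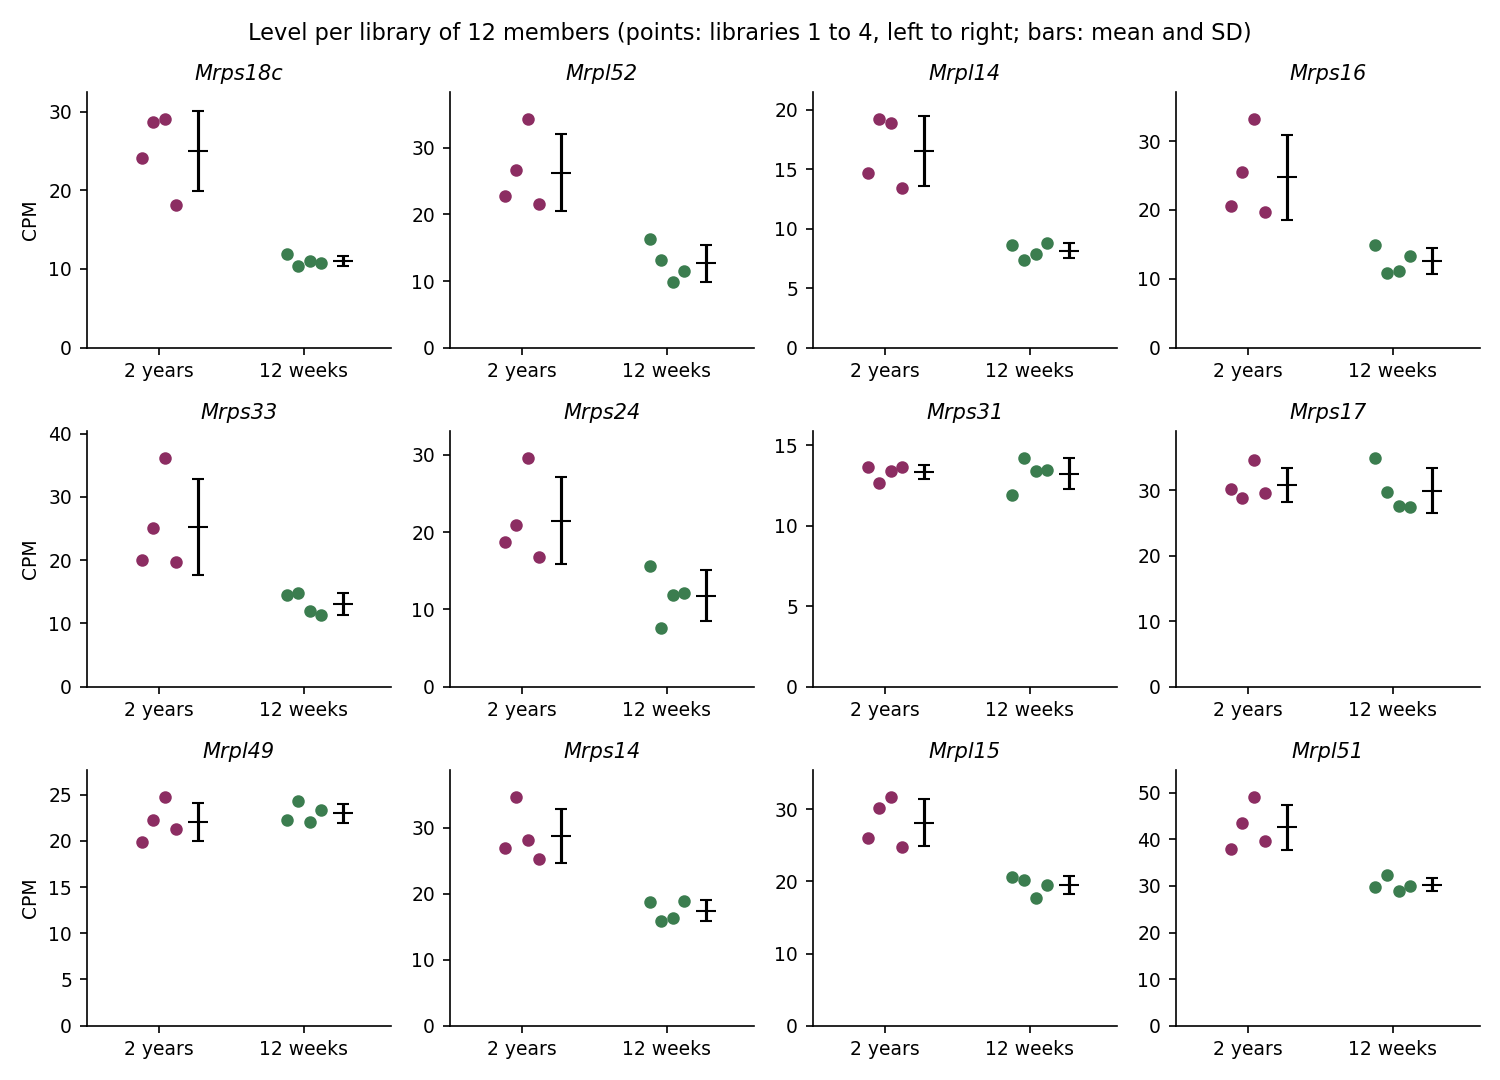
Level in CPM (y axis, from 0) of 12 members in each library, 2 years to the left of 12 weeks, with bars for the mean and SD of the 4 libraries. The 2-year points lie above all 12-week points for Mrps18c, Mrpl52, Mrpl14, Mrps16, Mrps33, Mrps24, Mrps14, Mrpl15 and Mrpl51, and the ages overlap for Mrps31, Mrps17 and Mrpl49.

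Some members had fold changes near 0. Mrps31, a small-subunit protein specific to mitochondria, had 13.6, 12.7, 13.4 and 13.6 CPM at 2 years, against 11.9, 14.2, 13.4 and 13.4 CPM at 12 weeks, a log2 fold change of 0.01 (SE 0.12, adjusted p = 0.94). The 2-year range lay within the 12-week range, and with the longest-transcript offset the gene was called lower, at -0.56 (adjusted p = 0.0023). Mrps17 had 30.2, 28.8, 34.7 and 29.6 CPM at 2 years, against 34.9, 29.8, 27.6 and 27.5 CPM at 12 weeks (log2 fold change 0.04 ± 0.12 SE, adjusted p = 0.80), with overlapping ages. Mrpl49 had 19.9, 22.3, 24.7 and 21.2 CPM at 2 years, against 22.3, 24.3, 22.1 and 23.3 CPM at 12 weeks, a log2 fold change of -0.06 with an SE of 0.12 (adjusted p = 0.66, edgeR). With the longest-transcript offset Mrpl49 was called lower, at -0.53 (adjusted p = 0.00087). Mrpl49 shares exon positions with Syvn1 on the opposite strand. Mrps26 had the lowest fold change, with 10.3, 8.96, 17.9 and 11.6 CPM at 2 years, against 16.9, 11.6, 10.99 and 11.8 CPM at 12 weeks (log2 fold change -0.08 ± 0.22 SE, adjusted p = 0.78). A single high library at each age, the third at 2 years and the first at 12 weeks, set its spread.

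Per kilobase of the longest annotated transcript, the members spanned a wide range. Mrpl33, a small large-subunit protein, was the highest with 87.2 ± 18.8 CPM per kilobase at 2 years and 56.5 ± 7.39 at 12 weeks (SD, n = 4 each), followed by Mrps21 with 74.0 ± 6.46 at 2 years and 54.7 ± 6.77 at 12 weeks and Mrpl42 with 69.9 ± 10.02 at 2 years and 49.1 ± 1.41 at 12 weeks. Mrps21 and Mrpl42 did not differ from each other beyond their spread at either age, nor did Mrpl33 and Mrps21. Mrpl52 came next with 56.8 ± 12.4 CPM per kilobase at 2 years and 27.4 ± 5.93 at 12 weeks. The lowest were Mrps25 with 3.61 ± 0.308 at 2 years and 2.95 ± 0.469 at 12 weeks, Mrpl57 with 3.78 ± 0.1795 at 2 years and 2.52 ± 0.233 at 12 weeks, and Mrps26 with 2.85 ± 0.922 at 2 years and 3.00 ± 0.635 at 12 weeks. The order depends on the transcript: per kilobase of the transcript of median length, over all libraries, Mrps21 was highest with 77.5 CPM per kilobase, ahead of Mrpl33 with 71.8, and Mrpl17, named here after its values were seen, had 70.7, against 4.44 by its longest transcript.

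By CPM, Mrpl33 had 36.6, 39.7, 54.9 and 35.5 at 2 years, against 32.1, 25.8, 24.04 and 26.0 at 12 weeks (log2 fold change 0.62, SE 0.16, adjusted p = 0.0074). Mrps21, the counterpart of bacterial S21, had a log2 fold change of 0.43 (SE 0.13, adjusted p = 0.013), and without the fourth 12-week library the call was lost (0.37, adjusted p = 0.054). Mrpl42 had 0.51 (SE 0.12, adjusted p = 0.0051). Mrpl57 rose by 0.58 (SE 0.14, adjusted p = 0.0043), with all 2-year libraries above all 12-week ones. Mrps25, whose exons overlap those of Nr2c2 on the opposite strand, had 0.29 (SE 0.14, adjusted p = 0.10) and passed the threshold without the first 12-week library (0.40, adjusted p = 0.028). Both offset fits called it higher, at 0.60 (adjusted p = 0.014) with the longest transcript and 0.72 (adjusted p = 0.0084) with that of median length.

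Members with distinct roles varied within the same range. Mrpl12, of the stalk that recruits translation factors, had 24.02, 26.7, 41.4 and 24.03 CPM at 2 years, against 23.7, 17.8, 19.2 and 18.7 CPM at 12 weeks (log2 fold change 0.55 ± 0.19 SE, adjusted p = 0.029). The third 2-year library stood apart, and the call was lost without it (0.33, adjusted p = 0.059) and without the second (0.49, 0.081), the third (0.53, 0.069) or the fourth 12-week library (0.51, 0.076). Mrpl11, at the base of the stalk, had a log2 fold change of 0.60 (SE 0.18, adjusted p = 0.016), and missed the threshold without the third 12-week library (0.55, adjusted p = 0.0505). Mrpl3, of the large-subunit core, had 0.31 (SE 0.11, adjusted p = 0.036), a call that was kept when the fourth 2-year library was left out and lost when any other was, with adjusted p of 0.051 to 0.0995 there. Mrpl22, which lines the exit tunnel, had 0.42 (SE 0.14, adjusted p = 0.025) and lost its call without the third or the fourth 12-week library or the second or the third 2-year library, with adjusted p of 0.051 to 0.074. Mrpl44, mutated in some human mitochondrial cardiomyopathies, had 0.35 (SE 0.15, adjusted p = 0.070), and passed the threshold without the fourth 2-year library (0.42, adjusted p = 0.046). Its exons overlap those of Wdfy1 on the opposite strand.

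Mrpl58, the peptidyl-tRNA hydrolase that releases stalled chains and became a fixed part of the large subunit, had a log2 fold change of 0.17 (SE 0.13, adjusted p = 0.29). Mrps12, of the decoding centre, had 0.32 (SE 0.17, adjusted p = 0.14). Of the 3 relatives of bacterial S18, Mrps18c was called higher as given above, Mrps18a, in the large subunit and counted here as specific to mitochondria, had 0.44 (SE 0.13, adjusted p = 0.015, and 0.051 without the fourth 12-week library), and Mrps18b had 0.23 (SE 0.14, adjusted p = 0.18). The differences between the 3 were not tested. Mrps30 had 25.1, 28.4, 25.4 and 25.1 CPM at 2 years, against 19.3, 20.9, 17.1 and 20.1 CPM at 12 weeks (log2 fold change 0.43 ± 0.12 SE, adjusted p = 0.0099), with no overlap. Mrps34, whose loss in humans causes Leigh syndrome, had 0.39 (SE 0.18, adjusted p = 0.083) and passed the threshold without the first 2-year library (0.52, adjusted p = 0.025). Exons of Mrps34 overlap those of Nme3 and Mapk8ip3. Mrps36 had 16.4, 17.8, 23.7 and 16.6 CPM at 2 years, against 14.4, 14.3, 13.8 and 14.3 CPM at 12 weeks (log2 fold change 0.38 ± 0.14 SE, adjusted p = 0.042), and the call was lost without any of the 12-week libraries or without the second or the third at 2 years, with adjusted p of 0.067 to 0.10.

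The members are short genes, and in this comparison short transcripts were higher at 2 years in general. The members' median length, by the longest protein-coding transcript of the GENCODE M21 annotation, was 1327.5 nt against 3178 nt for tested genes, which places it at percentile 9.91. Over 10 bins of length with equal numbers of genes, the median log2 fold change of all genes ran from 0.60 in the shortest bin, up to 1335 nt, to -0.64 in the longest. The shortest bin held 39 of the 78 members, of which 28 were called higher, with a median of 0.51, below the 0.60 of all genes in it, of which 58.4% were called higher. In the next bin, up to 1827 nt, 5 of 12 members were called higher, against 41.3% of all genes in it, and their median was 0.29 against 0.32. In the third bin 0 of 4 members were called in edgeR and their median was 0.24 against 0.21 for all genes, and in the fourth bin 1 of 4 was called with a median of 0.32 against 0.13. The 4 members in the fifth bin were all called higher with a median of 0.59, against 25.5% and 0.04 for all genes there. In each of the bins from 3179 nt upward, of 1 to 6 members, their median lay between 0.21 and 0.31 while that of all genes ran from -0.05 to -0.64, and 5 of the 15 members in them were called higher. Across genes, Spearman's rho of fold change with length was -0.46 over the 78 members and -0.42 over all tested genes with a length, a description in which every point comes from the same 8 libraries.

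**Figure D3:**
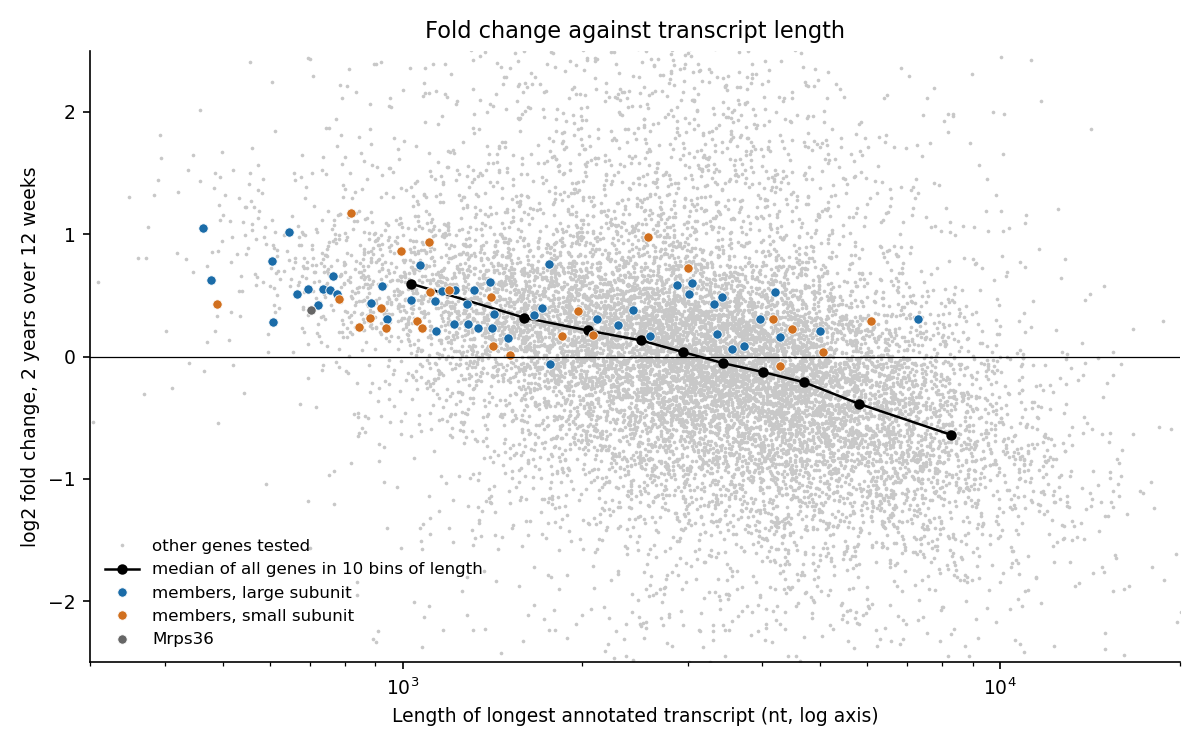
Log2 fold change (2 years over 12 weeks, y axis) against transcript length in nt (log x axis) for the members, coloured by subunit, and the other genes tested in grey, with a black line for the median of all genes in 10 bins of length. Genes beyond the axis limits are not drawn. The line falls from 0.60 to -0.64, and the members lie around it at short lengths and above it at long ones.

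The length trend itself differed between libraries. The slope of each library's log2 level, relative to the mean of all libraries, on log2 length was -0.145, -0.315, -0.292 and -0.108 at 2 years, against 0.127, 0.262, 0.244 and 0.227 at 12 weeks. The groups did not overlap in this slope, and it moved with the family: the second and the third 2-year libraries had the steepest slopes and the largest family levels of their group, and the first 12-week library the flattest and largest of its own. Length dependence and age cannot be told apart in these libraries.

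A fit with a length and GC offset for each library, taken from the longest transcript, gave lower fold changes for most members. In this fit 13 members were called higher, 24 lower and 41 were not called, with a median log2 fold change of -0.10, against -0.06 for all genes, where 23.1% were called higher, 27.8% lower and 50.9% either way. Of the 43 members called higher without the offset, 10 remained higher, 23 were not called and 10 turned to lower. Spearman's rho of the members' fold change with longest-transcript length was 0.69 in this fit, against -0.46 without the offset. The fit thus left a length dependence of the opposite sign among the members. The largest turns were of members with short transcripts: Mrps21 went to a log2 fold change of -0.72 (SE 0.12, adjusted p = 0.00073), Mrps36 to -0.66 (SE 0.10, adjusted p = 0.00040), Mrpl33 to -0.65 (SE 0.10, adjusted p = 0.00051), Mrpl22 to -0.57 (SE 0.11, adjusted p = 0.0016) and Mrpl42 to -0.57 (SE 0.08, adjusted p = 0.00034). Of the 6 with the largest rise, Mrps16 kept its call at 0.73 (SE 0.19, adjusted p = 0.0082), while Mrps18c had 0.20 (adjusted p = 0.15), Mrpl14 0.20 (adjusted p = 0.26), Mrps24 0.17 (adjusted p = 0.40), Mrps33 0.16 (adjusted p = 0.45) and Mrpl52 -0.02 (adjusted p = 0.89).

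The result depended on the transcript that gave the length. For 13 members the longest transcript is at least 2 times as long as the transcript of median length, as for Mrpl17 with 7300 nt against 459 nt. With the transcript of median length, a choice made after seeing the data, 20 members were called higher, 1 lower (Mrpl49, log2 fold change -0.34, adjusted p = 0.013) and 57 were not called, with a median of 0.20. All genes in that fit were called higher for 24.6%, lower for 28.8% and either way for 53.4%, with a median of -0.04. Here all 6 members with the largest rise stayed called, from 0.62 for Mrps24 to 0.92 for Mrps16. In all, 7 members were called higher without an offset and with both, and 4 in every one of the 21 settings run: Mrps16, Mrps14, Mrpl15 and Mrpl51. The last 3 were named after their values were seen. Mrps14, a small-subunit protein, had 26.9, 34.6, 28.2 and 25.3 CPM at 2 years, against 18.7, 15.8, 16.3 and 18.9 CPM at 12 weeks, and its log2 fold change was 0.72 without an offset, 0.58 with the longest and 0.39 with the median-length transcript. Mrpl15, of the large subunit, had 26.0, 30.2, 31.7 and 24.8 CPM at 2 years, against 20.6, 20.3, 17.8 and 19.5 CPM at 12 weeks, with 0.53, 0.59 and 0.34 in the same order of fits. Mrpl51, also of the large subunit, had 38.0, 43.6, 49.0 and 39.7 CPM at 2 years, against 29.8, 32.3, 29.0 and 30.05 CPM at 12 weeks, with 0.49, 0.43 and 0.61.

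**Figure D4:**
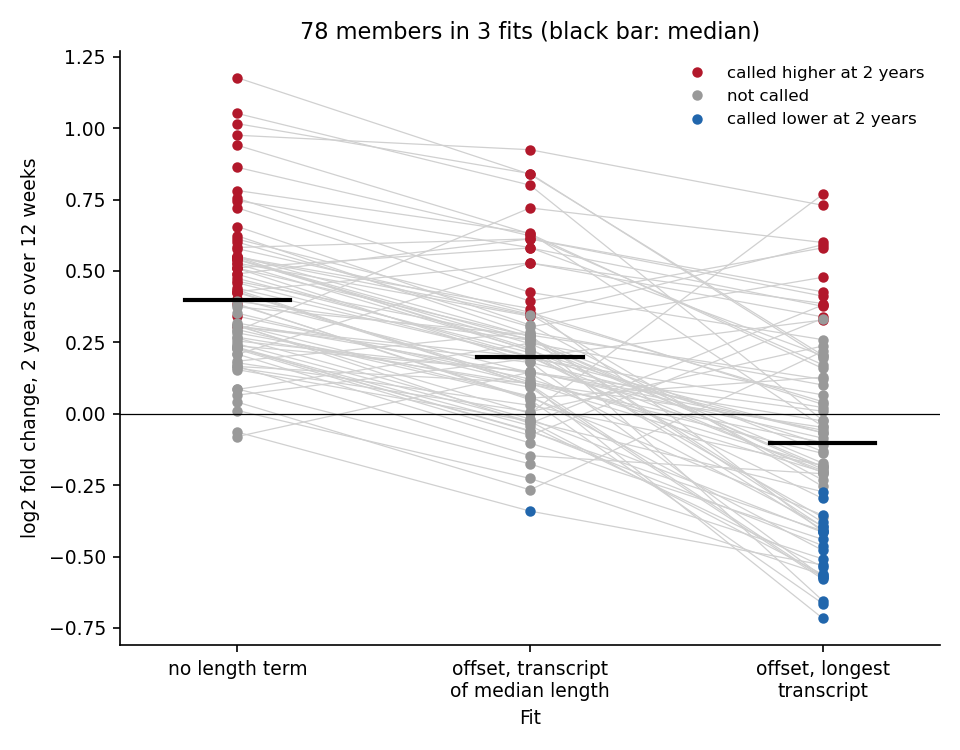
Log2 fold change (2 years over 12 weeks, y axis) of the 78 members in 3 edgeR fits (x axis), with grey lines joining each gene, colours for its call and a black bar for the median. The median is 0.40 with no length term, 0.20 with the offset from the transcript of median length and -0.10 with that from the longest transcript, where 24 genes were called lower.

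Many members share a promoter region with a neighbour on the other strand, and the shares of these neighbours called were near those of all genes. Of the 69 members with a RefSeq start site, 26 (37.7%) had a start site of an opposite-strand gene within 1000 bases upstream, against 18.0% of tested genes. Of the 21 tested partners that are not members, 6 were called higher and 6 lower, near the 25.8% and 26.2% of all tested genes, with a median log2 fold change of -0.14, while the members with a partner had a median of 0.35. Mrps18c, with its log2 fold change of 1.18, starts 159 bases from Helq, a DNA helicase gene at -1.26 (adjusted p = 0.00048), and Mrpl14 at 1.02 starts 131 bases from Tmem63b at -0.91 (adjusted p = 0.00023). Mrpl30 at a log2 fold change of 0.75 and its partner Mitd1 at 0.57 (adjusted p = 0.0081) were both called higher, as were Mrpl32 at 0.51 and Psma2, a proteasome subunit gene, at 0.75 (adjusted p = 0.00078). Mrpl49, which was not called, starts 192 bases from Fau, a gene of a cytosolic ribosomal protein that was at 1.63 (adjusted p = 0.00018). The partner Helq has a longest transcript of 3689 nt against 820 nt for Mrps18c, and Tmem63b 3284 nt against 645 nt for Mrpl14, so these pairs differ in length as well. The genes Mrpl46 and Mrps11 are members that face each other, 42 bases apart, at 0.46 and 0.29.

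Proteins of the same ribosome that carry other names moved in both directions. Of 5, 2 were called higher and 1 lower, where all tested genes had 25.8% and 26.2%. With the longest-transcript offset 0 were called higher and 1 lower, and with that from the transcript of median length 2 and 1. Without both libraries numbered 3, 2 were called higher and 0 lower. Aurkaip1, a small-subunit protein also known for binding the Aurora A kinase, had 38.4, 48.0, 53.1 and 43.8 CPM at 2 years, against 33.0, 24.3, 26.9 and 28.7 CPM at 12 weeks, with no overlap (log2 fold change 0.70 and adjusted p = 0.0017). Chchd1 was at 0.87 (adjusted p = 0.0020) and Ptcd3, an RNA-binding small-subunit protein, at -0.39 (adjusted p = 0.016). With the longest-transcript offset Aurkaip1 was at 0.14 and Chchd1 at -0.25, neither called.

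Among assembly factors and translation factors, which build and run the ribosome, calls went in both directions. Of 26 assembly factors, 4 were called higher and 4 lower, smaller shares than the 25.8% and 26.2% of all tested genes, with a median log2 fold change of 0.08. The offset from the longest transcript gave 1 higher, 9 lower and a median of -0.26, and that from the transcript of median length 4 higher and 9 lower. Ddx28, an RNA helicase of large-subunit assembly, had 10.6, 13.9, 14.2 and 9.65 CPM at 2 years, against 6.86, 6.70, 5.73 and 6.29 CPM at 12 weeks (log2 fold change 0.91, adjusted p = 0.00099). Mettl17, which acts on the small subunit, was at -0.87 (adjusted p = 0.0017), and Trub2, a pseudouridine synthase, at -0.77 (adjusted p = 0.0016). Of 14 translation factors, 1 was called higher and 3 lower, and the call of the higher one was kept without the third 12-week library and lost without any other. The offset fits gave 0 higher, with 5 lower for the longest transcript and 4 lower for that of median length. Guf1, the mitochondrial relative of bacterial elongation factor LepA, had 8.79, 8.36, 7.87 and 8.02 CPM at 2 years, against 41.4, 39.4, 35.7 and 34.4 CPM at 12 weeks, with a gap many times the spread within either age (-2.19, adjusted p = 6.65e-07). The initiation factor gene Mtif2 was at -0.96 (adjusted p = 0.00023) and Gfm2, for ribosome recycling, at -0.78 (adjusted p = 0.0012). These 3 were called lower in both offset fits too.

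The shares called lower among the next 3 lists were near the 26.2% of all tested genes, and the shares called higher were below the 25.8%. Of 21 mitochondrial tRNA synthetases, 1 was called higher, Fars2 at a log2 fold change of 0.66 (adjusted p = 0.0041), and 6 lower, among them Hars2 at -0.71 (adjusted p = 0.0027) and Aars2 at -0.84 (adjusted p = 0.0046). Of 19 genes of mitochondrial DNA copying, transcription and RNA processing, 2 were called higher and 5 lower, and the same counts came from the longest-transcript offset. Polg, the catalytic subunit of the mitochondrial DNA polymerase, had 28.7, 29.8, 27.3 and 34.0 CPM at 2 years, against 67.4, 53.8, 51.9 and 53.8 CPM at 12 weeks (log2 fold change -0.92, adjusted p = 0.00017), and was not called with that offset, at -0.32. Its accessory subunit Polg2 was at -1.10 (adjusted p = 0.0019), and Hsd17b10, a subunit of mitochondrial RNase P, at 0.62 (adjusted p = 0.0015), and at -0.16 and not called with that offset. With the offset from the transcript of median length 1 of the 19 was called higher and 7 lower. Of 13 regulators of mitochondrial biogenesis, 1 was called higher, Myc at 1.16 (adjusted p = 0.00076), with a second without the first 12-week library, and 3 lower, among them Ppargc1a, the coactivator that drives biogenesis, at -1.46 (adjusted p = 0.0052), and its relative Pprc1 at -0.55 (adjusted p = 0.014). With the longest-transcript offset 1 regulator was called higher and 1 lower, and Pprc1, at -0.18, was not called. The transcript of median length gave 1 higher and 4 lower.

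The mRNAs that the mitochondrial ribosome translates moved in both directions. Of 13, 2 were called higher, mt-Nd3 at a log2 fold change of 1.30 (adjusted p = 0.011) and mt-Co3 at 1.16 (adjusted p = 0.012), and 2 lower, among them mt-Nd4l at -0.83 (adjusted p = 0.0027), with a median of -0.11. Both shares were below the 25.8% and 26.2% of all tested genes. Without the third 2-year library 6 were called lower, and without the second or the third 12-week or any other 2-year library 1 was. With the offset from the longest transcript 0 were called higher and 9 lower, against 23.1% and 27.8% of all genes. With that from the transcript of median length 2 were called higher and 3 lower, against 24.6% and 28.8%. mt-Co3 had 8587, 9953, 17361 and 4853 CPM at 2 years, against 5511, 4965, 4257 and 3458 CPM at 12 weeks, so the ages overlapped and the third 2-year library was the highest.

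**Figure D5:**
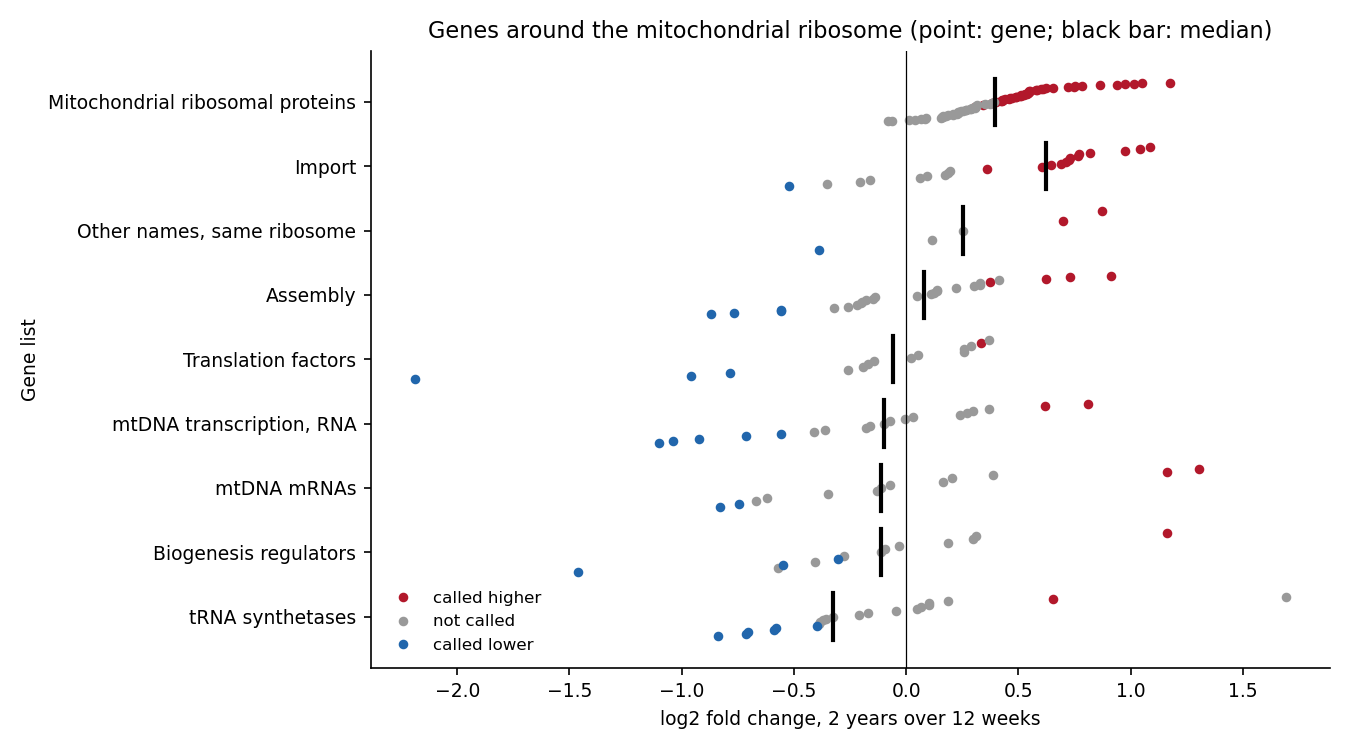
Log2 fold change (2 years over 12 weeks, x axis) of the genes in 9 lists (y axis), 1 point a gene, coloured by call, with a black bar for the list's median; the height of points within a list has no meaning. The ribosomal protein members and the import genes lie mostly right of 0, with medians of 0.40 and 0.62, and the medians of the other lists lie between -0.33 and 0.25.

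The import machinery is the way by which every mitochondrial ribosomal protein enters the organelle. Of 22 import genes, 13 were called higher and 1 lower (3 lower without the third 2-year library), against 25.8% and 26.2% of all tested genes, with a median of 0.62. Timm23, the channel of the inner membrane, had 53.4, 61.2, 72.1 and 49.9 CPM at 2 years, against 30.3, 26.3, 29.9 and 24.9 CPM at 12 weeks (log2 fold change 1.09, adjusted p = 0.00011). The outer membrane receptor gene Tomm22 was at 0.77 (adjusted p = 0.00054) and Tomm7 at 1.04 (adjusted p = 0.00031). With the offset from the longest transcript 6 import genes were called higher and 3 lower, against 23.1% and 27.8% of all genes, with a median of 0.10. Timm23 kept its call there, and Tomm22 and Tomm7 did not. With the offset from the transcript of median length 11 import genes were called higher and 3 lower, with a median of 0.39. All genes had 24.6% and 28.8% in that fit. Of 16 genes used as general markers of mitochondrial amount, 8 were called higher and 2 lower, and with the longest-transcript offset 2 and 3, with a median of -0.008. The transcript of median length gave 6 higher and 3 lower, with a median of 0.26. Without an offset the chaperonin gene Hspe1 was at 0.93, Phb2 at 0.73 and the outer membrane channel gene Vdac3 at 0.60. None of these 3 was called with the longest-transcript offset.

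The cytosolic ribosomal proteins, whose ribosome makes the mitochondrial ribosomal proteins, rose further. All 77 were called higher, against 25.8% of all tested genes, with a median of 1.35. Their share of counts was 4.52% ± 0.892 at 2 years against 1.85% ± 0.132 at 12 weeks (SD, n = 4 each). Rps3 had 661, 910, 975 and 622 CPM at 2 years, against 306, 240, 231 and 282.2 CPM at 12 weeks. These genes are shorter still, with a median longest transcript of 937 nt. With the longest-transcript offset 48 of 77 stayed called higher and 0 were called lower, against 13 and 24 of the 78 mitochondrial members. All genes had 23.1% called higher and 27.8% lower with that offset. With the transcript of median length 75 of 77 were called higher and 0 lower, with a median of 1.10. The mitochondrial members had 20 and 1 in that fit, and all genes 24.6% and 28.8%. The difference between the families was not tested.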

How the data were processed

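Whole-transcriptome libraries of aorta RNA (total RNA, column kit, NovaSeq, per the labels) were deposited by the authors as raw counts per gene symbol, 1 table for each of 8 libraries. The submitters' processing notes name the build GRCm39. Which aligner, counter, annotation and strand setting were used is not given in the sources used here, so counts of overlapping genes are uncertain. Every table held whole numbers with different totals.

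Genes were kept with edgeR's filterByExpr, scaled by TMM and tested at 2 years over 12 weeks with edgeR 4.0.16 (glmQLFit with robust estimation, glmQLFTest) in R 4.3.3, with Benjamini-Hochberg adjustment over all genes tested and a threshold of 0.05. A log2 fold change is edgeR's, its SE is the fold change over the root of F, and CPM are on TMM-scaled library sizes. The alternatives were RLE and upper quartile scaling, DESeq2 1.42.0, limma voom (limma 3.58.1), no filter, at least 1 CPM in 4 libraries, a replicate block, a length and GC offset, and leaving out libraries. The offset removed, in each library, a spline with 4 degrees of freedom in log2 length and in GC content, known for 97.8% of the genes tested. Transcript lengths and exon overlaps come from GENCODE M21 and promoter windows from RefSeq GRCm38.p6, both a build older than the counts, matched by symbol. Scripts were tested on simulated data of 13603 genes. Of 100 genes changed there, 9% were recovered at 1.5-fold and 58% at 2-fold, with 4 false calls.

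Named members are, by rule, the 6 largest changes in each direction, the 4 highest and 3 lowest per length, the 3 nearest 0, up to 6 whose call was lost or turned by the offset, and 12 chosen by role. Other lists give up to 3 called genes of smallest p. The members and lists were chosen with earlier results of these data known.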

Additional observations from a re-analysis of the deposited data

Results flagged for a closer look

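The level of every member named by rule, with a few whole-library measures, was checked within each age for a library far from the other 3, which chance alone gives in about 1 in 20 groups, and 4 were found in 64 groups. Mrpl12, of the ribosome's stalk, had 41.4 CPM in the third 2-year library, against 24.02 to 26.7 CPM in the others of that age. Mrps26, a small-subunit protein, had 16.9 CPM in the first 12-week library, against 10.99 to 11.8 CPM in the others. Mrps30, of the large subunit despite its name, had 28.4 CPM in the second 2-year library, against 25.1 to 25.4 CPM. Mrps36, the adaptor of the 2-oxoglutarate dehydrogenase complex, had 13.8 CPM in the third 12-week library, against 14.3 to 14.4 CPM, a gap that is small in size. The first pair of libraries are also those with the highest level of their age for 51 and 49 of the 78 members.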

How the results depend on the processing

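The members' rise at 2 years over 12 weeks had 43 called higher and a median log2 fold change of 0.40. It kept its direction in the settings without a length and GC offset, and not in all of those with one. Under RLE scaling, DESeq2, limma voom, upper quartile scaling, both other filters and the replicate block, 0 members were called lower. There 33 to 53 were called higher, with medians of 0.39 to 0.48, the most and the largest under upper quartile scaling. Leaving out each library gave 31 to 46 higher, 0 lower, medians of 0.32 to 0.44 and a difference in share of counts of 0.0449 to 0.0547 percentage points (0.0494 with all). Without both replicates numbered 3, 27 were higher. Upper quartile scaling moved the median of all genes to 0.08. Same-numbered libraries deviated together by correlations of -0.31 to 0.05, and differently numbered ones by -0.12 to 0.28. These values do not show that the numbers pair the libraries, and they cannot exclude it. The replicate block gave 33 higher.

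The length and GC offset gave 13 higher, 24 lower and a median of -0.10, where 23.1% of all genes were called higher and 27.8% lower. With the replicate block added it gave 7, 21 and -0.11, and without the third 2-year library 9, 23 and -0.10. With transcripts of median length it gave 20, 1 and 0.20. Named members then turned negative where a call was made with or without the offset, with values for the offset, the offset with the block and the offset without the third 2-year library in that order: Mrpl22 -0.57, -0.57 and -0.54, Mrpl33 -0.65, -0.65 and -0.68, Mrpl42 -0.57, -0.57 and -0.58, Mrps12 -0.39, -0.40 and -0.39, Mrps18a -0.30, -0.30 and -0.28, Mrps18b -0.46, -0.46 and -0.41, Mrps21 -0.72, -0.73 and -0.63, Mrps31 -0.56, -0.57 and -0.57, and Mrps36 -0.66, -0.67 and -0.71. Mrpl52 turned to -0.023 and -0.011 in the first pair, and Mrpl12 to -0.084 and Mrps33 to -0.032 without the third 2-year library. Of members called in neither fit, Mrpl44 turned to -0.20, -0.20 and -0.22, Mrps34 to -0.19, -0.19 and -0.21 and Mrpl58 to -0.048, -0.052 and -0.13. Mrpl49, at -0.06 with TMM scaling and no offset, was called lower at -0.53, -0.53 and -0.57, and Mrps25 was called higher at 0.60, 0.61 and 0.52. These fits share 1 construction, the offset, and the cause of the length trend was not tested. With 4 libraries an age, the 35 members that missed the threshold are not shown to be the same at both ages.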
